A study of Mus musculus with 105 samples.

Results

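MC38 is a mouse colon adenocarcinoma line and MCA101OVA is a mouse fibrosarcoma line that carries ovalbumin, both of strain C57BL/6. The comparison set 4 unedited MC38 libraries against 4 unedited MCA101OVA libraries, 8 of the 105 libraries in the series. They were chosen by their labels, which name the line and give the condition WT. Poly(A) RNA was read as counts per gene, and levels are given as CPM, counts per 1000000 counts of the library total. Per the labels, the cells had grown in RPMI with serum and puromycin. The library names begin with a run code, whose meaning the labels do not give. MC38 replicate 1 has the code B176 and replicates 2 to 4 have the code D176. MCA101OVA replicate 1 has B253, replicates 2 and 3 have B262, and replicate 4 has B176. Run D176 thus holds no unedited MCA101OVA library analysed here, and runs B253 and B262 hold no unedited MC38 library analysed here. The 7 unedited libraries of B16OVA, a melanoma line with ovalbumin that occurs in all 4 runs, entered the fit to tie the runs together. Run B176 also holds 1 library each of MC38OVA, MC38GFP and MCA101 without ovalbumin, all with the condition WT. A further 12 libraries, 3 of MC38, 3 of MCA101OVA and 6 of B16OVA, are titled Ctrl. This is a condition apart from WT and from the Setdb1 knockout of the series, and these libraries enter a fit of their own below. The labels do not say whether replicates were separate cultures, so p-values may measure technical spread alone. Library totals of the 15 libraries were 21089552 to 44066541 counts.

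Carcinoma cells arise from epithelium, which is held together by the adhesion proteins of Cdh1 and Epcam and carries simple keratins such as Krt8 and Krt18. Fibrosarcoma cells arise from mesenchyme, which makes fibrillar collagens and vimentin. Both kinds of cell can show peptides to T cells on MHC class I molecules, whose genes are induced by interferon. Cdkn2a and Cdkn2b are neighbouring genes for inhibitors of the cell cycle that are often lost in tumours.

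The libraries labelled MC38 formed 2 unlike sets by run, which bears on every result below. Across 9372 genes, Spearman's rho between the 3 libraries labelled MC38 of run D176 and the 3 MC38, MC38OVA and MC38GFP libraries of run B176 was 0.767 to 0.816. The same D176 libraries correlated with the 2 MCA101 libraries of run B176, with and without ovalbumin, at 0.916 to 0.945. Within run B176, MC38 libraries correlated with MCA101 libraries at 0.800 to 0.849, and with each other at 0.883 to 0.981. Between runs, B16OVA of run B176 correlated with B16OVA of the other runs at 0.595 to 0.892. MCA101OVA of runs B253 and B262 correlated with the MCA101 libraries of run B176 at 0.751 to 0.898. The values between the 2 MC38 sets lie within both ranges. The low end of the MCA101OVA range came from replicate 2 (0.751 and 0.806), while replicates 1 and 3 had 0.828 to 0.898. The trend of log CPM with transcript length was -0.2152 in that replicate, against 0.1294 to 0.267 in the libraries of the 2 MC38 sets. It was -0.5487 and -0.4373 in B16OVA replicates 2 and 6. The part of this trend was not tested, so the ranges do not decide whether the MC38 sets are unusually far apart. Every library labelled MC38 of run D176 was closer to both MCA101 libraries of run B176 than to any MC38 library of that run. The points of each correlation are genes of the same pair of libraries, so no test was made. Which of the 2 sets is the MC38 line was not tested. Results are therefore given with the D176 libraries and within run B176 alone.

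**Figure D1:**
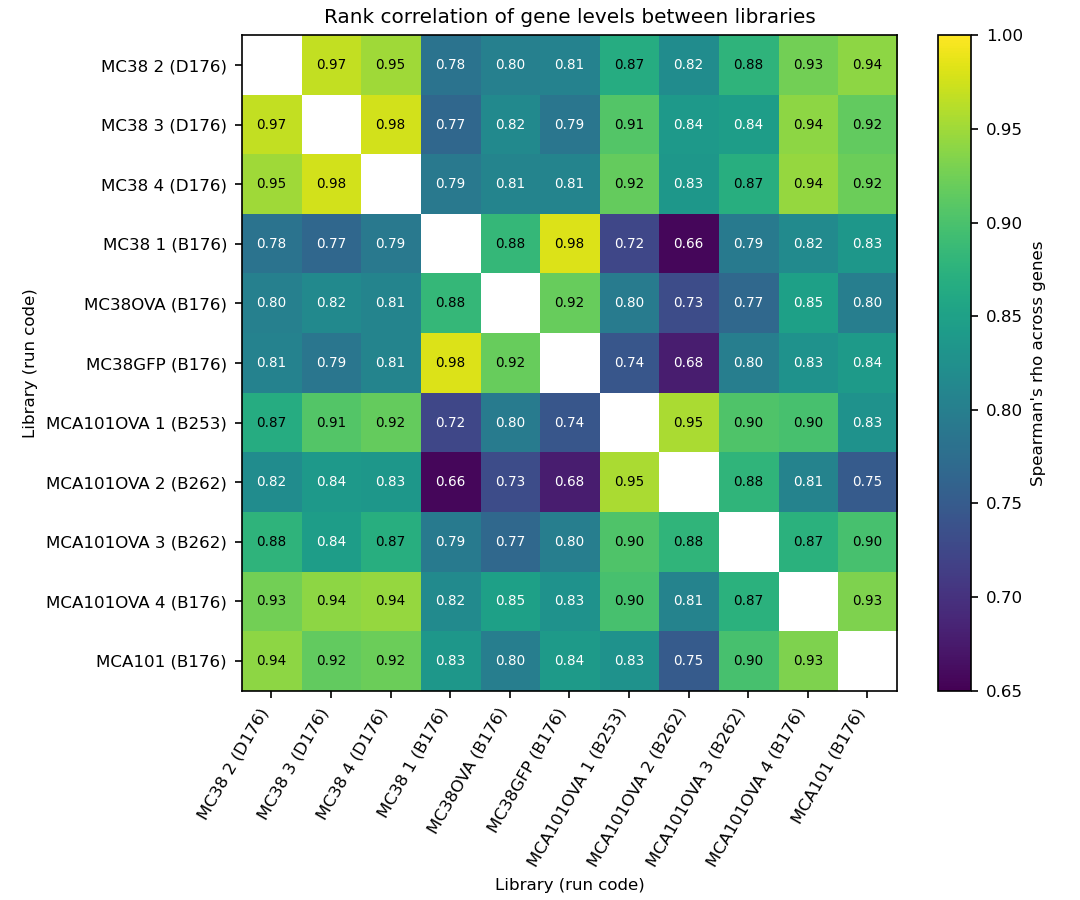
Spearman's rho across 9372 genes, as colour and as a printed value, between each pair of MC38 and MCA101 libraries (both axes, run code in brackets). The D176 MC38 libraries have brighter cells with the MCA101 libraries of run B176 (0.916 to 0.945) than with the MC38 libraries of run B176 (0.767 to 0.816).

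Epcam, Cdh1, Vil1 and Cdx2, markers of colon epithelium, were near 0 in all libraries labelled MC38. Krt8 and Krt18, also chosen as its markers, were high in the D176 MC38 libraries and in MCA101OVA, as given below. Epcam had 0, 0.0314 and 0 CPM in the D176 MC38 libraries and 0 CPM in each of the MC38, MC38OVA and MC38GFP libraries of run B176, against 0 CPM in every MCA101OVA library. The 4 healthy colon libraries of the series held 1383 to 1531 CPM of Epcam. Cdh1, the E-cadherin gene, reached at most 0.0908 CPM in a library labelled MC38, against at most 0.102 CPM in MCA101OVA, while healthy colon held 883 CPM or more. Vil1, a microvillus protein, and Cdx2, the hindgut transcription factor, did not exceed 0.0886 and 0.0314 CPM in libraries labelled MC38. None of these 4 genes set MC38 apart from the fibrosarcoma line in culture. The summed level of the 29 genes of the colon list was 21.9 to 41.2 CPM in the D176 MC38 libraries and 21.6 to 22.8 CPM in the 3 MC38 libraries of run B176, against 12.4 to 20.2 CPM in MCA101OVA replicates 1 to 3 and 24.1 to 27.9 CPM in the 2 MCA101 libraries of run B176.

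Of the genes chosen to mark mesenchyme or fibroblasts, Vim and Col3a1 overlapped between the lines over the 4 and 4 libraries. Col1a1 and Thy1 were too low in all 8 to set the lines apart. The wider fibroblast list had a median log2 fold of -1.07 over the 15 libraries, against -0.04 over all genes. Of its 18 tested members edgeR called 1 higher and 0 lower, and DESeq2 called 1 higher and 4 lower. The markers Dcn and Pdgfra were higher in the MC38 libraries of run B176, as given below. Vim, the intermediate filament of mesenchyme, had 2993, 3705 and 2764 CPM in the D176 MC38 libraries and 2009 CPM in MC38 replicate 1, against 6404, 6646, 2096 and 5075 CPM in MCA101OVA. The groups overlapped, and the edgeR test described below gave no call (log2 fold -0.52, SE 0.54, adjusted p = 1). The type I collagen gene Col1a1 stayed at or below 0.709 CPM in all 8 libraries, and Thy1, a surface protein of fibroblasts, was at 0 CPM in all 8. Col3a1, the type III collagen gene, had 175, 143 and 116 CPM in the D176 MC38 libraries and 83.5 CPM in MC38 replicate 1, against 521, 291, 60.7 and 427 CPM in MCA101OVA, again with overlap. Ptprc, the pan-leukocyte surface gene, did not exceed 0.0295 CPM in these MC38 libraries, against 0.0797 CPM in MCA101OVA.

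Over the 15 libraries, 27 genes were higher and 48 lower in MC38 than in MCA101OVA at an adjusted p under 0.05 (edgeR quasi-likelihood test with line and run as terms), 0.492% of the 15230 genes tested. By CPM, the 4 and 4 libraries did not overlap in 55 of these 75 genes, and in 9.69% of all tested genes. Magohb, a subunit of the exon junction complex on chromosome 6 (131284388 to 131293244, minus strand, GRCm38), had 8.04, 11.3 and 12.6 CPM in the D176 MC38 libraries and 50.4 CPM in MC38 replicate 1, against 0.0465, 0.137, 0.0907 and 0.0797 CPM in MCA101OVA. All 4 MC38 libraries lay above all 4 MCA101OVA libraries (log2 fold 7.68, SE 0.79, adjusted p = 8.83e-04). Tram1l1, a homologue of a protein of the endoplasmic reticulum translocon, had 4.22, 4.71 and 4.61 CPM in the D176 MC38 libraries and 1.63 CPM in replicate 1, against 0.0465, 0.0341, 0 and 0.0266 CPM in MCA101OVA. Its groups did not overlap (log2 fold 6.56, SE 0.60, adjusted p = 2.97e-04). Prdm16, a zinc finger regulator of brown fat and stem cells, had 26.1, 13.3 and 13.3 CPM in the D176 MC38 libraries and 13.6 CPM in replicate 1, against 0.325, 0.820, 1.15 and 0.744 CPM in MCA101OVA. Again no library of one line lay within the range of the other (log2 fold 4.46, SE 0.57, adjusted p = 0.00419).

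Some higher genes were far apart between the 2 MC38 sets. Gspt2, a translation termination factor, had 0.620, 0.628 and 0.555 CPM in the D176 MC38 libraries and 15.3 CPM in MC38 replicate 1, against 0 CPM in each MCA101OVA library (log2 fold 9.52, SE 1.42, adjusted p = 0.0178). Sirpa, the receptor for the Cd47 signal of self, had 1.83, 2.48 and 1.72 CPM in the D176 MC38 libraries and 12.1 CPM in replicate 1, against 0.0697, 0.205, 0.212 and 0.0531 CPM in MCA101OVA (log2 fold 4.84, SE 0.93, adjusted p = 0.0342). The D176 libraries were above MCA101OVA in both genes, and replicate 1 was several-fold above them. Cd34, a surface sialomucin of progenitors, had 1.60, 0.785 and 0.467 CPM in the D176 MC38 libraries and 182 CPM in replicate 1, against 0.860, 0.785, 0.635 and 1.83 CPM in MCA101OVA, and was called (log2 fold 5.93, SE 1.03, adjusted p = 0.0217) although the D176 libraries overlapped MCA101OVA.

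Lncenc1, a long noncoding RNA known from mouse embryonic stem cells, had the lowest adjusted p of the called genes. It lies on chromosome 13 (97434970 to 97497007, plus strand, GRCm38) and had 8.60, 4.78 and 5.28 CPM in the D176 MC38 libraries and 3.27 CPM in replicate 1, against 396, 327.3, 300.8 and 517 CPM in MCA101OVA. The groups did not overlap (log2 fold -6.79, SE 0.39, adjusted p = 1.66e-06). Rhox5, an X-linked homeobox gene of testis and placenta, had 4.85, 3.24 and 2.77 CPM in the D176 MC38 libraries and 8.40 CPM in replicate 1, against 112, 98.5, 169 and 87.0 CPM in MCA101OVA (log2 fold -4.62, SE 0.57, adjusted p = 0.00272). The aldo-keto reductase gene Akr1c13 had 2.87, 2.98 and 2.69 CPM in the D176 MC38 libraries and 0.477 CPM in replicate 1, against 44.6, 57.98, 33.9 and 31.5 CPM in MCA101OVA (log2 fold -4.41, SE 0.51, adjusted p = 0.00183). Both were thus low in every MC38 library. Akr1c12, a close paralogue of Akr1c13, was also called lower (log2 fold -4.58, SE 0.76, adjusted p = 0.0174), and reads may be shared between the pair.

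For many called genes the MCA101 library without ovalbumin stood on the MC38 side. On the log2 scale it was nearer to the mean of the D176 MC38 libraries than to the mean of MCA101OVA replicates 1 to 3 in 61 of the 75 called genes. The share over all tested genes was not computed. Among the 2429 genes called within run B176, 1363 were nearer to D176 MC38 and 880 to MCA101OVA. The trend of log CPM with transcript length was 0.3014 in this library and 0.2197 to 0.267 in D176 MC38. It was -0.0725, -0.2152 and 0.001 in MCA101OVA replicates 1 to 3, and its part in this was not tested. Magohb had 9.66 CPM in MCA101 without ovalbumin, Prdm16 had 12.2 CPM and Tram1l1 had 2.78 CPM. Rhox5 had 10.3 CPM there and Akr1c13 had 4.11 CPM, both far below the MCA101OVA values above. Lncenc1 had 60.6 CPM, between the lines, and 3.27, 53.8 and 8.95 CPM in MC38, MC38OVA and MC38GFP of run B176. In the fit of run B176 described below, which holds this library, Magohb, Tram1l1, Prdm16, Lncenc1 and Rhox5 were not called (edgeR adjusted p = 0.161, 0.642, 0.429, 0.102 and 0.318). Akr1c13 was called lower there too (log2 fold -5.10, SE 0.87, adjusted p = 0.0138).

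For genes that B16OVA hardly expresses, the fold rested on the single pair of run B176. Of the 75 called genes, 37 had 1 CPM or less in all 7 B16OVA libraries, and 34 of these 37 were called lower in MC38. Only MC38 replicate 1 and MCA101OVA replicate 4 then compare the lines within a run. In 11 of the 75, the D176 MC38 libraries differed from MCA101OVA in the direction opposite to the fitted fold. Of these 11, 10 were among the 37, and the other 1 was Tigit, which was above 1 CPM in at least 1 B16OVA library. Tigit, a checkpoint receptor of lymphocytes, had 124, 82.9 and 94.9 CPM in the D176 MC38 libraries and 0.204 CPM in replicate 1, against 20.01, 55.5, 45.1 and 31.0 CPM in MCA101OVA, and its fitted fold was negative (log2 fold -7.01, SE 1.36, adjusted p = 0.0368). Hs6st2, a heparan sulfate sulfotransferase, had 55.5, 50.6 and 56.001 CPM in the D176 MC38 libraries and 0.953 CPM in replicate 1, against 40.7, 20.1, 32.8 and 76.6 CPM in MCA101OVA (log2 fold -6.25, SE 1.27, adjusted p = 0.0485). Igf2, the fetal growth factor, had 22.4, 15.8 and 13.5 CPM in the D176 MC38 libraries and 0.0227 CPM in replicate 1, against 11.7, 11.6, 12.5 and 10.7 CPM in MCA101OVA (log2 fold -7.86, SE 1.34, adjusted p = 0.019). In these 3 genes replicate 1 was near 0 and the D176 libraries were at or above the mean of MCA101OVA.

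Without run B176, 6 genes were higher and 13 lower in the 3 D176 MC38 libraries than in MCA101OVA replicates 1 to 3, 0.124% of 15320 genes (edgeR, tied by B16OVA of the same runs). By direction these are 0.0392% higher and 0.0849% lower. The higher genes were Cnp, Fzd6, Gspt2, Magohb, Prdm16 and Tram1l1. Cnp, a myelin phosphodiesterase, had 5.08, 5.37 and 1.96 CPM in the D176 MC38 libraries, against 0 CPM in each of these 3 MCA101OVA libraries and 2.39 CPM in MCA101 without ovalbumin (without run B176 adjusted p = 0.0244). Fzd6, a Wnt receptor, had 1.74, 1.38 and 1.17 CPM in the D176 MC38 libraries, against 0.0232, 0.0683 and 0.0302 CPM in these MCA101OVA libraries and 6.69 CPM in MCA101 without ovalbumin (log2 fold 5.27, SE 0.75, adjusted p = 0.0298). For both, the MCA101 library without ovalbumin was nearer to MC38 than to MCA101OVA. The lower genes included Lncenc1, Rhox5, Akr1c13 and Aim2, a cytosolic DNA sensor. Aim2 had 0.0591, 0.0628 and 0.0584 CPM in the D176 MC38 libraries, against 4.56, 4.64 and 5.32 CPM in MCA101OVA replicates 1 to 3 and 0.619 CPM in MCA101 without ovalbumin (log2 fold -6.02, SE 0.87, adjusted p = 0.0298). MC38 replicate 1 held 7.76 CPM of Aim2, above all 3. Of these 19 genes, 17 had MCA101 without ovalbumin nearer to the D176 MC38 libraries than to MCA101OVA, again with no share computed over all tested genes.

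In 12 Ctrl libraries (3 MC38, 3 MCA101OVA and 6 B16OVA), which share no library with the unedited ones, 4 genes were higher and 6 lower in MC38, 0.067% of 14920 (edgeR with the same terms), or 0.0268% higher and 0.0402% lower. The 4 higher genes, Cnp, Magohb, Prdm16 and Tram1l1, are 66.7% of the 6 called higher without run B176 and 14.8% of the 27 called over the 15 libraries. Clstn3, Lncenc1, Pde5a and Slfn3 were called lower in the Ctrl libraries and without run B176, 30.8% of the 13 lower genes there. All 3 Ctrl libraries labelled MC38 are of run D176. In the Ctrl libraries Lncenc1 fell (log2 fold -6.39, SE 0.49, adjusted p = 3.65e-04) and Magohb rose (log2 fold 7.197, SE 0.67, adjusted p = 0.00153). With the length slope as a covariate, the trend of log CPM with transcript length in a library, the Ctrl counts were 23 higher and 20 lower.

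Within run B176, the libraries labelled MC38 and MCA101 differed far more widely. In the 3 MC38, MC38OVA and MC38GFP libraries against the 2 MCA101 libraries, with and without ovalbumin, 1292 genes were higher and 1137 lower, 16.4% of 14819 genes tested (edgeR, line as the term). The derivatives are taken here as replicates of their lines. The length slope moved with the line in these 5 libraries: it was 0.1323, 0.1294 and 0.1745 in MC38, MC38OVA and MC38GFP, against 0.254 and 0.3014 in MCA101OVA and MCA101. With it as a covariate in edgeR 0 genes were called, with 1183 at an unadjusted p under 0.05. In the 22-library fit below, the same covariate left 5532 genes called in B176 MC38 against MCA101. In that fit of 22 unedited libraries with MC38 split by run, and without the covariate, 3636 genes (22.1% of 16466) were called in B176 MC38 against MCA101 and 14 (0.085%, 0.0243% higher and 0.0607% lower) in D176 MC38 against MCA101. The direct difference between D176 MC38 and B176 MC38 was called in 1936 genes, 11.8% of those tested (5.21% higher and 6.55% lower). In 2286 of the 2429 genes called within run B176, the D176 MC38 libraries were nearer to the MCA101 libraries of run B176 than to the MC38 libraries of that run. Here too the share over all tested genes was not computed. All adjusted p-values from here on are of the run B176 fit by edgeR unless named otherwise.

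**Figure D2:**
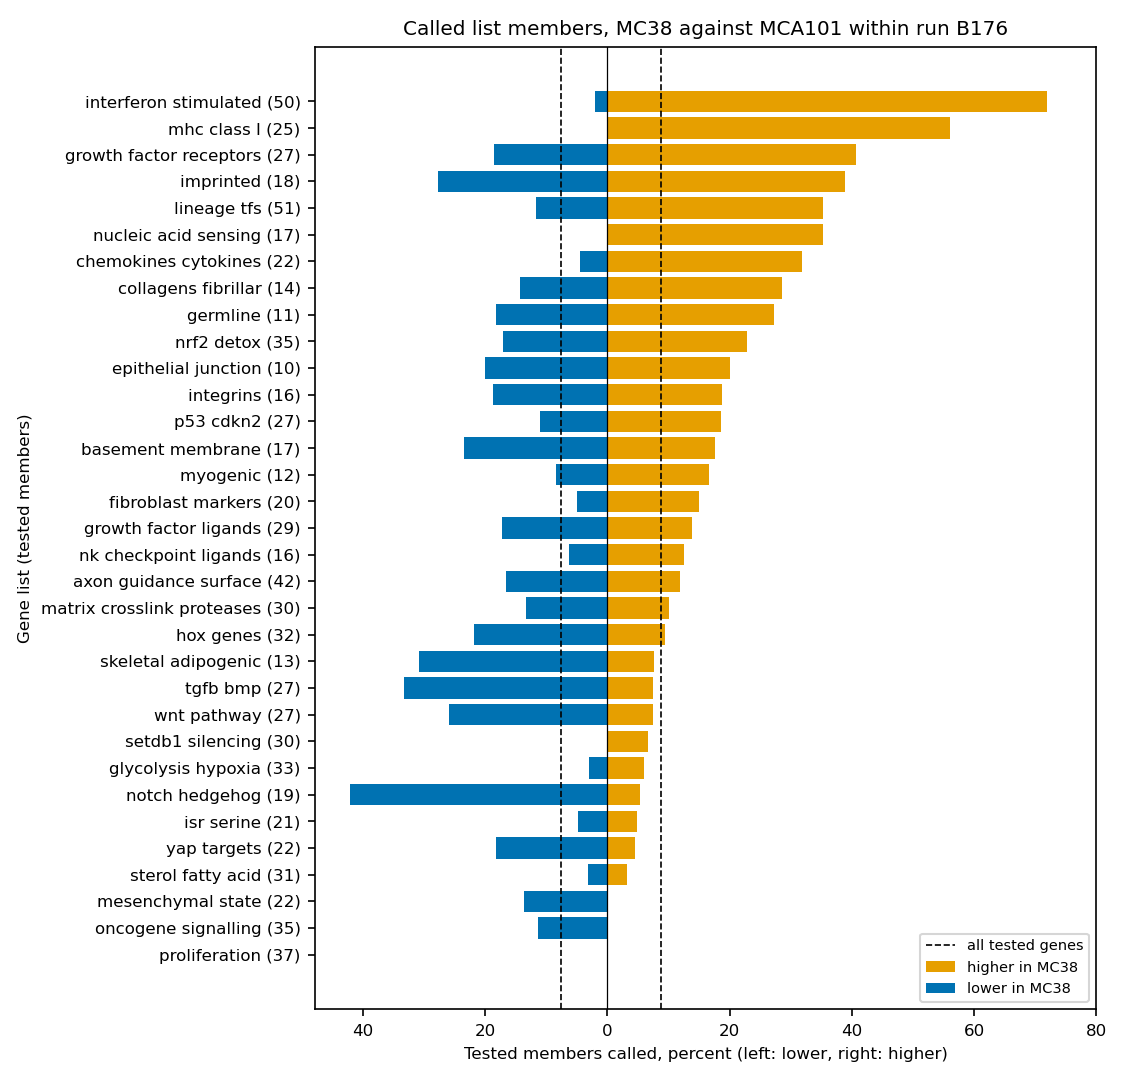
Percent of the tested members of each gene list (rows, number tested in brackets, lists with at least 10) called higher (right) or lower (left) in the MC38 libraries than in the MCA101 libraries of run B176. Dashed lines mark all tested genes (8.72% higher, 7.67% lower), and the longest bar is that of the interferon-stimulated list with 36 of 50 members called higher.

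Interferon-stimulated genes were higher in the MC38 libraries of run B176. Of 50 tested members of the list, 36 were called higher and 1 lower, against 8.72% higher and 7.67% lower among all tested genes, and the median log2 fold was 2.05 against 0.05 over all genes. In the 22-library fit of B176 MC38 against MCA101, 13 of 50 were called higher and 2 lower, against 12% and 10% of all tested genes, with a median of 2.02. Rsad2, which makes an antiviral nucleotide, had 261, 140.1 and 315.1 CPM in MC38, MC38OVA and MC38GFP, against 14.8 and 5.55 CPM in MCA101OVA and MCA101 of the run (log2 fold 4.54, SE 0.64, adjusted p = 0.00715). Ifih1, a sensor of double-stranded RNA, had 127, 84.97 and 127 CPM in the MC38 libraries, against 16.6 and 10.3 CPM in the MCA101 libraries (log2 fold 3.05, SE 0.37, adjusted p = 0.00439). Gbp7, which encodes a GTPase that attacks intracellular pathogens, had 78.0, 77.7 and 70.6 CPM in the MC38 libraries, against 1.75 and 2.63 CPM in the MCA101 libraries (log2 fold 5.08, SE 0.31, adjusted p = 7.26e-04). None of these 3 genes, picked from those called, overlapped between the lines in run B176, and the share over all tested genes there was not computed. Irf8, an interferon regulatory factor of myeloid cells, was the 1 member called lower, with at most 0.0998 CPM in the MC38 libraries, against 1.91 and 3.42 CPM in the MCA101 libraries (log2 fold -5.64, SE 0.92, adjusted p = 0.0116).

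Outside run B176, interferon-stimulated genes varied widely within each line. Rsad2 had 64.5, 14.7 and 2.57 CPM in the D176 MC38 libraries, against 2.70, 8.88, 76.3 and 14.8 CPM in MCA101OVA. The groups overlapped, and MCA101OVA replicate 3 was above every D176 library. The sum over the list was 333.4 to 3576 CPM in the D176 MC38 libraries and 4828 to 5127 CPM in the 3 MC38 libraries of run B176, against 408.0 to 5108 CPM in MCA101OVA replicates 1 to 3 and 1304 to 1685 CPM in the 2 MCA101 libraries of run B176. Over the 15 libraries 0 of 49 members were called by edgeR and 0 by DESeq2, with 1 at an unadjusted p under 0.05, although 44 had a positive log2 fold. Without run B176, 0 of 49 were called by edgeR, and 0 had an unadjusted p under 0.05.

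Promoters of interferon-stimulated genes often carry a repeat to which interferon-activated factors bind. The letters GAAANNGAAA were searched on both strands (TTTCNNTTTC as read on the other) in the 300 bases from 250 before to 50 after the start in RefSeq promoters on GRCm38.p6. They stood in 21 of the 37 list genes with a promoter, and in 3.99% of all 27025 genes with a promoter (3.44% of 32851 promoters). Among the 25 of these genes that were called higher in run B176, 20 held the letters, and among the other 12, 1 did. Of the MHC class I list, 5 of 21 genes held them, and 1 of the 12 called higher. Shown are 3 guanylate-binding protein genes called higher in run B176 and B2m, the class I gene among those called higher that holds a match, with matches in capitals. A match is a description of the letters, not a bound site.
Gbp2: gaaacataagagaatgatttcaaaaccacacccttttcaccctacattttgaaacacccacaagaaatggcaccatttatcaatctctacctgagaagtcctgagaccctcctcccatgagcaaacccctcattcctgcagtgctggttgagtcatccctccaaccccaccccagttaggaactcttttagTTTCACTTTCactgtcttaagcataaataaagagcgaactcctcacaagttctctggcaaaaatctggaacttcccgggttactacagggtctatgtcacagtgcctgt
Gbp5: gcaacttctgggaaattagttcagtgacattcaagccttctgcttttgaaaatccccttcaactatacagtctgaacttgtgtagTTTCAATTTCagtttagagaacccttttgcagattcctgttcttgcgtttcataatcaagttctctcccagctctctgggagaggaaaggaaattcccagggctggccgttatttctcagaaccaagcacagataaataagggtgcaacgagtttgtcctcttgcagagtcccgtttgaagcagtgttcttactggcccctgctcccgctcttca
Gbp7: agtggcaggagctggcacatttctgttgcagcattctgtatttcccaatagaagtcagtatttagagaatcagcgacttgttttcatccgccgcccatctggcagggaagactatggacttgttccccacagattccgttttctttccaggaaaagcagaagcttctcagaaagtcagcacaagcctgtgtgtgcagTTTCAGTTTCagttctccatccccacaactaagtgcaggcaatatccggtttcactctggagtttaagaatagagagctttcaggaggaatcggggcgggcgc
B2m: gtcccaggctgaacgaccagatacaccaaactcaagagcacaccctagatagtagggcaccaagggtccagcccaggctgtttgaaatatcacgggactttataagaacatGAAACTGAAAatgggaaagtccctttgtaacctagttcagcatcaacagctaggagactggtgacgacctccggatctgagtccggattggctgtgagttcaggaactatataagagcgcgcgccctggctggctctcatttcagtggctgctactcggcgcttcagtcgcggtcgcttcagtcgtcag
They lie at chr3:142620413-142620712, chr3:142496684-142496983, chr3:142530086-142530385 and chr2:122147437-122147736, all on the plus strand. The match begins 59 bases before the start in Gbp2, 165 in Gbp5, 53 in Gbp7 and 139 in B2m. Of the genes shown, Gbp5 had 15.8, 14.54 and 16.5 CPM in the MC38 libraries of run B176, against 0.159 and 0.0516 CPM in the MCA101 libraries (log2 fold 7.24, SE 0.60, adjusted p = 0.00173). Gbp2 had 134, 154 and 88.6 CPM in those MC38 libraries, against 8.05 and 9.06 CPM in the MCA101 libraries (log2 fold 3.85, SE 0.33, adjusted p = 0.00186).

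Genes of MHC class I presentation were higher in the MC38 libraries of run B176 as well. Of 25 tested members, 14 were called higher and 0 lower by edgeR, against 8.72% higher and 7.67% lower among all tested genes. In the list 18 had an unadjusted p under 0.05, against 4821 of all 14819 genes, and 17 were called higher and 0 lower by DESeq2. The median log2 fold was 1.87, against 0.05 over all genes. B2m, the light chain of class I molecules, had 3155, 2571 and 2765 CPM in MC38, MC38OVA and MC38GFP, against 594 and 617 CPM in MCA101OVA and MCA101 (log2 fold 2.21, SE 0.27, adjusted p = 0.00465). Psmb8, a subunit of the immunoproteasome that cuts peptides for class I, had 0.177, 0.157 and 0.0584 CPM in the D176 MC38 libraries and 144, 225 and 172 CPM in the MC38 libraries of run B176, against 0, 0.444, 0.212 and 0.106 CPM in MCA101OVA (log2 fold 10.70, SE 0.43, adjusted p = 2.44e-04). It was thus near 0 in every library but the MC38 libraries of run B176. In the 22-library fit, D176 MC38 differed from B176 MC38 in Psmb8 by -9.20 on the log2 scale (SE 1.37, adjusted p = 1.39e-04). The nonclassical genes H2-Q4, H2-Q6 and H2-Q7 had at least 215 CPM in each MC38 library of run B176, and at most 0.295 CPM in every D176 MC38 and MCA101OVA library. H2-Q genes are near-identical copies, so counts may have been split among them.

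The classical class I genes were expressed in all libraries. H2-K1, a classical heavy chain, had 397, 106 and 89.0 CPM in the D176 MC38 libraries and 807 CPM in MC38 replicate 1, against 121, 560.0, 575 and 141 CPM in MCA101OVA. The D176 MC38 libraries overlapped MCA101OVA, and MC38 replicate 1 lay above all others. Within run B176 H2-K1 was called higher (log2 fold 2.30, SE 0.39, adjusted p = 0.0131). Over the 15 libraries 0 of 22 tested class I members were called by edgeR and 0 by DESeq2, with 2 at an unadjusted p under 0.05. Without run B176 0 were called by edgeR and 0 had an unadjusted p under 0.05. The list's median log2 fold was then -0.19, against -0.18 over all genes.

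On chromosome 4, the Cdkn2 genes were read in the MC38 libraries of run B176 and were near 0 in the other libraries of the 2 lines. Cdkn2b (89306299 to 89311039, minus strand, GRCm38), which encodes an inhibitor of Cdk4 and Cdk6, had 0 CPM in each D176 MC38 library and 53.6, 80.9 and 60.2 CPM in MC38, MC38OVA and MC38GFP of run B176, against 0, 0, 0 and 0.0266 CPM in MCA101OVA (log2 fold 11.40, SE 0.48, adjusted p = 2.79e-04). Cdkn2a (89274471 to 89294653, minus strand, GRCm38), which encodes p16 and Arf, had 0, 0.0314 and 0 CPM in the D176 MC38 libraries and 5.97, 6.01 and 8.78 CPM in those of run B176, against 0 CPM in all 4 MCA101OVA libraries. Set against a floor of 3 counts over the 2 MCA101 libraries of run B176, this was at least 226-fold higher. Dmrta1, a neighbouring gene, had 0.0295, 0 and 0 CPM in the D176 MC38 libraries and 33.8, 12.1 and 15.1 CPM in those of run B176, against at most 0.0683 CPM in MCA101OVA. Mtap, a methionine salvage gene on the same stretch, had 133, 167 and 197 CPM in the D176 MC38 libraries and 237 CPM in MC38 replicate 1, against 318.5, 294, 151 and 288 CPM in MCA101OVA. It was not called in the run B176 fit by edgeR (log2 fold 0.83, SE 0.53, adjusted p = 0.325). That fit also holds MC38OVA, MC38GFP and MCA101 without ovalbumin, whose Mtap values are not printed here. Between the 2 printed libraries of that run, MC38 replicate 1 was below MCA101OVA replicate 4. Trp53, the p53 gene, was lower in the MC38 libraries of run B176 by a smaller step: 129, 133 and 132 CPM in the MC38 libraries, against 236 and 219 CPM in the MCA101 libraries (log2 fold -0.81, SE 0.20, adjusted p = 0.0397).

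**Figure D3:**
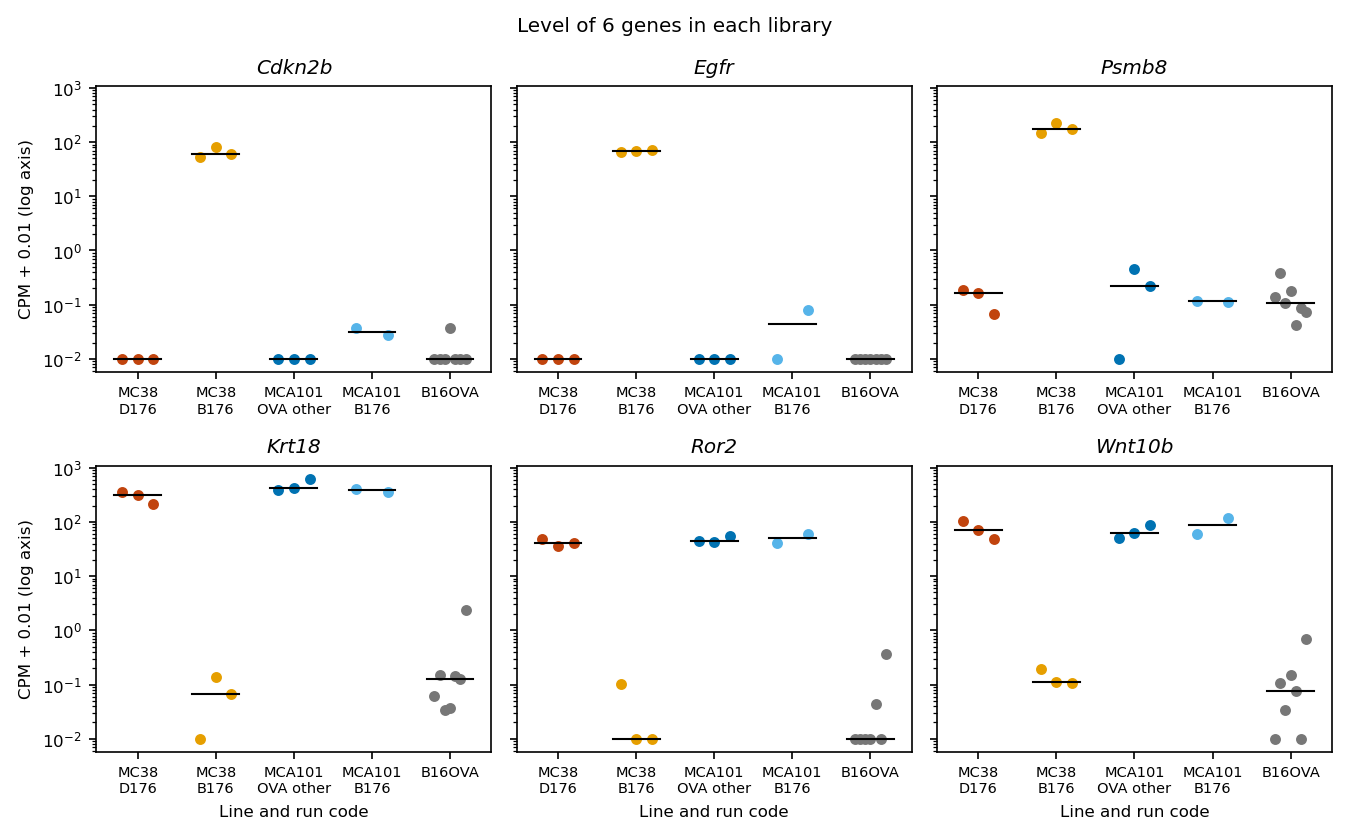
CPM + 0.01 on a log axis for 6 genes, with a point for each library and a bar at the median, in MC38 of run D176, MC38 with MC38OVA and MC38GFP of run B176, MCA101OVA of runs B253 and B262, MCA101OVA with MCA101 of run B176, and B16OVA. In all 6 panels the D176 MC38 points lie near the MCA101 points and far from the MC38 points of run B176, as for Krt18 with 358, 311.7 and 212 CPM in D176 MC38 and at most 0.125 CPM in B176 MC38.

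Growth factor receptors differed in both directions within run B176, with 11 of 27 tested receptors called higher and 5 lower in MC38, against 8.72% higher and 7.67% lower among all tested genes. Egfr, the epidermal growth factor receptor, had 0 CPM in each D176 MC38 library and 64.7, 69.9 and 71.5 CPM in the MC38 libraries of run B176, against 0 CPM in all 4 MCA101OVA libraries and 0.0688 CPM in MCA101 without ovalbumin (log2 fold 10.62, SE 0.66, adjusted p = 7.36e-04). Egfr did not pass the filter of the 15-library fit, since only MC38 replicate 1 holds it there. Fgfr2, a fibroblast growth factor receptor, had 2.13, 1.60 and 1.43 CPM in the D176 MC38 libraries and 5.33 CPM in MC38 replicate 1, against 0.0697, 0, 0 and 0.0266 CPM in MCA101OVA. All MC38 libraries were above MCA101OVA, and Fgfr2 was called over the 15 libraries (log2 fold 7.13, SE 1.19, adjusted p = 0.0178). Ror2, a receptor for Wnt5a, had 47.6, 35.9 and 41.4 CPM in the D176 MC38 libraries and 0.0908, 0 and 0 CPM in the MC38 libraries of run B176, against 43.9, 42.4, 55.9 and 41.3 CPM in MCA101OVA (log2 fold -10.62, SE 0.90, adjusted p = 0.00177). The D176 libraries of Ror2 lay within or next to the MCA101OVA range. Of 29 tested ligands 4 were called higher and 5 lower in run B176 (8.72% and 7.67% of all tested genes), the lower ones including Igf2 (log2 fold -10.66, SE 0.84, adjusted p = 0.00139) and Pdgfb, a platelet-derived growth factor (log2 fold -7.00, SE 0.90, adjusted p = 0.00561).

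Cytokine genes were mostly higher where called, with 7 of 22 tested members higher and 1 lower in the MC38 libraries of run B176, against 8.72% higher and 7.67% lower among all tested genes. Cxcl10, a chemokine for T cells, had 44.9, 19.4 and 6.19 CPM in the D176 MC38 libraries and 127, 106 and 175 CPM in those of run B176, against 6.51, 19.9, 129.6 and 32.7 CPM in MCA101OVA (log2 fold 2.03, SE 0.30, adjusted p = 0.0085). MCA101OVA replicate 3 was within the range of the MC38 libraries of run B176. Il33, an alarmin, had 0.0886, 0.0314 and 0.0292 CPM in the D176 MC38 libraries and 7.92, 27.8 and 78.5 CPM in those of run B176, against 0.0232, 0.0341, 0.0605 and 0.0531 CPM in MCA101OVA (log2 fold 9.72, SE 1.44, adjusted p = 0.0086). The MC38 libraries of run B176 alone held more than 1 CPM of Il33 among libraries of the 2 lines.

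Wnt, TGF-beta and Notch genes were called lower more often than higher in the MC38 libraries of run B176. In the Wnt list 2 of 27 tested genes were called higher, near the 8.72% of all tested genes, and 7 lower, against 7.67%. The median log2 fold was -0.84, against 0.05 over all genes. Wnt10b, a ligand, had 105, 69.97 and 47.8 CPM in the D176 MC38 libraries and 0.182, 0.0998 and 0.0950 CPM in the MC38 libraries of run B176, against 50.6, 63.5, 89.0 and 59.5 CPM in MCA101OVA (log2 fold -9.44, SE 0.50, adjusted p = 4.51e-04). Ctnnb1, the beta-catenin gene, was lower by a smaller step, with 212, 287 and 195 CPM in the MC38 libraries of run B176, against 645 and 654 CPM in the MCA101 libraries (log2 fold -1.51, SE 0.25, adjusted p = 0.0118). In the TGF-beta and BMP list 2 of 27 were called higher and 9 lower (8.72% and 7.67% of all tested genes), with a median of -1.24, and 4 of the lower genes were the latent binding proteins Ltbp1, Ltbp2, Ltbp3 and Ltbp4. Grem1, a secreted inhibitor of BMPs, was called higher: it had 0.591, 0.0628 and 0.0584 CPM in the D176 MC38 libraries and 144, 287 and 449.9 CPM in those of run B176, against 0, 0, 0 and 0.133 CPM in MCA101OVA (log2 fold 12.06, SE 1.02, adjusted p = 0.00177). In the Notch and Hedgehog list 1 of 19 was called higher and 8 lower (8.72% and 7.67% of all tested genes), with a median of -1.17. Jag2, a Notch ligand, and Gli2, a Hedgehog effector, were among the lower ones, at 0.862, 1.27 and 0.703 and 0.204, 0.499 and 0.437 CPM in the MC38 libraries, against 12.5 and 13.5 and 10.3 and 21.1 CPM in the MCA101 libraries.

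Of 77 listed transcription factors of position and lineage, 51 were tested within run B176, with 18 called higher and 6 lower. Among all tested genes 8.72% were called higher and 7.67% lower. Hand2 and Msx2 below were near 0 in 1 of the lines and passed the expression filter only through the other. The direction of such members was fixed by the filter, so the counts are a description alone. Hand2, a factor of limb, heart and gut mesenchyme, had 0 CPM in the D176 MC38 libraries and 14.98, 12.8 and 11.5 CPM in the MC38 libraries of run B176, against 0 CPM in all MCA101OVA libraries (log2 fold 9.97, SE 0.71, adjusted p = 0.00104). Osr1, a factor of intermediate mesoderm, had 0.414, 0.157 and 0.263 CPM in the D176 MC38 libraries and 77.9, 87.8 and 105 CPM in those of run B176, against 0.0697, 0.137, 0.151 and 0.0797 CPM in MCA101OVA (log2 fold 8.56, SE 0.63, adjusted p = 0.00111). Both genes set the MC38 libraries of run B176 apart from all others of the 2 lines. Msx2, a factor of skull and limb, went the other way: it had 3.40, 4.30 and 5.14 CPM in the D176 MC38 libraries and 0 CPM in each MC38 library of run B176, against 4.81, 5.33, 10.0 and 8.504 CPM in MCA101OVA (log2 fold -11.47, SE 0.80, adjusted p = 0.00356). Of 32 Hox genes tested, 3 were called higher (Hoxb7, Hoxb13 and Hoxd13), a share near the 8.72% of all tested genes, and 7 lower, against 7.67%. Of the lower ones, 5 were in the Hoxc cluster.

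The keratin genes Krt8 and Krt18 were high in MCA101OVA and in the D176 MC38 libraries and low or near 0 in the MC38 libraries of run B176. Krt18 (chromosome 15, 102028180 to 102032027, plus strand, GRCm38) had 358, 311.7 and 212 CPM in the D176 MC38 libraries and 0, 0.125 and 0.0570 CPM in MC38, MC38OVA and MC38GFP of run B176, against 392, 431, 625.3 and 412 CPM in MCA101OVA (log2 fold -12.62, SE 0.69, adjusted p = 5.20e-04). Its partner Krt8 had 511, 458 and 242 CPM in the D176 MC38 libraries and 0.0681, 1.77 and 0.0570 CPM in those of run B176, against 814, 940.1, 811 and 631 CPM in MCA101OVA (log2 fold -9.63, SE 1.48, adjusted p = 0.00965). Of 11 listed keratins 3 were tested in run B176, and all 3, the third being Krt80, were called lower, against 7.67% of all tested genes. Krt8 and Krt18 passed the expression filter only through the MCA101 libraries, where they are high. Their direction was thus fixed by the filter, and the count is a description alone. In the 22-library fit, D176 MC38 differed from B176 MC38 in Krt18 by 7.79 on the log2 scale (SE 1.75, adjusted p = 0.00587). Of 10 tested genes of the epithelial junction list, 2 were called higher and 2 lower in run B176 (8.72% and 7.67% of all tested genes). Their median log2 fold was 0.28, against 0.05 over all genes. The higher ones were Esrp1, an epithelial splicing regulator, and Spint1, an inhibitor of membrane proteases, with log2 folds of 8.42 and 9.20. The lower ones were the desmosome genes Pkp2 and Pkp3, with log2 folds of -2.34 and -4.95.

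Matrix and fibroblast genes moved in both directions. Of 20 tested fibroblast markers, edgeR called 3 higher in the MC38 libraries of run B176 (Pdgfra, Dcn and Cd34) and 1 lower (Fbln2). Of 22 tested genes of the mesenchymal list, edgeR called 0 higher and 3 lower (Cdh2, Prrx2 and Foxc2). Among all tested genes 8.72% were called higher and 7.67% lower, so the 1 lower fibroblast marker is near that share. DESeq2 called 4 and 2 of the fibroblast markers and 1 and 3 of the mesenchymal list. In the mesenchymal list 4 had an unadjusted p under 0.05, 1 of them with a positive fold. Over the 15 libraries edgeR called 1 of 18 fibroblast markers higher, Cd34, and 0 lower (0.177% and 0.315% of all tested genes). Of the 18, 7 had an unadjusted p under 0.05, 3 of them with a positive fold, and DESeq2 called 1 higher and 4 lower. Their median log2 fold was -1.07, against -0.04 over all genes. Of 23 tested genes of the mesenchymal list edgeR called 0, with 3 at an unadjusted p under 0.05 and 1 called in each direction by DESeq2. Of 14 tested collagens of the fibril list 4 were called higher in the MC38 libraries of run B176 and 2 lower, against 8.72% higher and 7.67% lower among all tested genes. Col5a2, a type V collagen, had 0.502, 0.346 and 0.613 CPM in the D176 MC38 libraries and 167, 308.5 and 154 CPM in those of run B176, against 0.186, 0.0683, 0.0907 and 0.133 CPM in MCA101OVA (log2 fold 10.04, SE 0.60, adjusted p = 6.90e-04). Dcn, the matrix proteoglycan decorin and a fibroblast marker, had 0.0591, 0.0314 and 0 CPM in the D176 MC38 libraries and 47.1, 226 and 63.3 CPM in those of run B176, against 0.0232, 0.102, 0 and 0.186 CPM in MCA101OVA (log2 fold 9.81, SE 1.15, adjusted p = 0.00403). Col5a2 and Dcn were thus high in the MC38 libraries of run B176 and below 1 CPM in the D176 MC38 libraries and in MCA101OVA. Fbln2, a matrix glycoprotein, had 769.6, 851 and 795 CPM in the D176 MC38 libraries and 0.0681, 0.0748 and 0.285 CPM in those of run B176, against 578, 569, 299 and 411 CPM in MCA101OVA (log2 fold -11.34, SE 0.62, adjusted p = 5.20e-04). Lama5, a laminin chain of basement membranes, was also lower in run B176, with 1.203, 0.0998 and 0.855 CPM in the MC38 libraries, against 159.8 and 659.7 CPM in the MCA101 libraries (log2 fold -9.13, SE 1.10, adjusted p = 0.00432).

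Of 18 imprinted genes tested in run B176, 7 were called higher and 5 lower, against 8.72% higher and 7.67% lower among all tested genes. Grb10, a growth-restraining adaptor, had 0 CPM in the D176 MC38 libraries and 219, 141 and 203 CPM in those of run B176, against 0.0465, 0, 0 and 0.0266 CPM in MCA101OVA (log2 fold 11.75, SE 0.55, adjusted p = 3.42e-04). Igf2r, the receptor that clears Igf2, had 266, 204 and 161 CPM in the D176 MC38 libraries and 0.817, 2.84 and 1.41 CPM in those of run B176, against 111, 96.3, 167 and 144 CPM in MCA101OVA (log2 fold -7.14, SE 0.65, adjusted p = 0.00214). Both Igf2 and its clearing receptor were near 0 or low in the MC38 libraries of run B176 and present in the others.

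Proliferation genes did not pass the test: 0 of 37 were called in run B176 by edgeR and 0 by DESeq2, with 3 at an unadjusted p under 0.05. Over the 15 libraries 0 of 37 were called by either tool, with 0 at an unadjusted p under 0.05. Their summed level was 7214 to 9265 CPM in the D176 MC38 libraries and 6084 to 7832 CPM in the MC38 libraries of run B176, against 5930.3 to 9272 CPM in MCA101OVA replicates 1 to 3 and 5861 to 8505 CPM in the MCA101 libraries of run B176.

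Genes on in 1 line and near 0 in the other were defined as at least 5 CPM in every library of the one and at most 0.2 CPM in every library of the other. Over the 4 and 4 libraries 1 gene was on in MC38 and 2 were on in MCA101OVA. Within run B176, 118 genes were on in the 3 MC38 libraries and near 0 in the 2 MCA101 libraries, and 65 the reverse. These genes were then read in libraries that had no part in the choice. Of the 118, 0 were at 5 CPM or more in all D176 MC38 libraries and 110 were at 0.2 CPM or less in all 3, with a highest value of 2.13 CPM. In MCA101OVA replicates 1 to 3, 107 of the 118 were at 0.2 CPM or less in all 3. Of the 65, 57 were at 5 CPM or more in all D176 MC38 libraries and 54 in all of MCA101OVA replicates 1 to 3. The MC38 Ctrl libraries, also of run D176, had 106 of the 118 near 0 and 53 of the 65 on. Of the 118 genes, 15 lie on chromosome X (12.7%, against 3.46% of the genes tested in run B176).

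**Figure D4:**
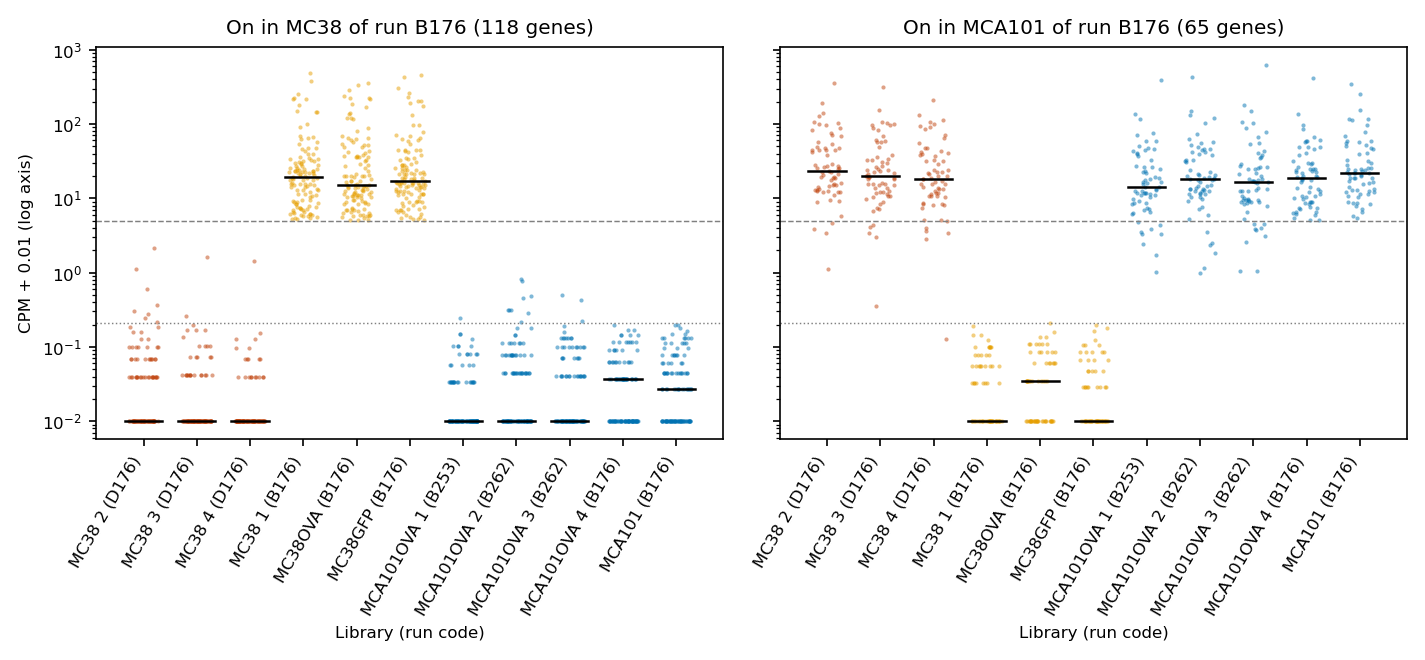
CPM + 0.01 on a log axis in each library (columns) for the 118 genes on in MC38 (left) and the 65 on in MCA101 (right) of run B176, with a point for each gene and a bar at the median. Dashed and dotted lines mark 5 and 0.2 CPM, and the D176 MC38 libraries stand with the MCA101 libraries in both panels.

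Along the chromosomes, some stretches had shifted medians within run B176. In windows of 10 Mb with at least 20 tested genes, the median log2 folds were 1.33, 1.51, 1.28 and 1.06 in the first 4 windows of chromosome 6 and -1.30 and -1.21 in the first 2 windows of chromosome 17. Without run B176, the same windows had medians of 0.40, 0.70, 0.43 and 0.48 on chromosome 6 and of -0.19 and -0.10 on chromosome 17. Over all tested genes the median was 0.05 in run B176 and -0.18 without run B176. The chromosome 6 windows were thus higher in MC38 in both sets of libraries, by less in the D176 set. The chromosome 17 windows were near the median of all genes without run B176. Medians of whole chromosomes ranged from -0.25 to 0.37 over the 15 libraries and from -0.23 to 0.43 in run B176, with chromosome 6 highest in both.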

How the data were processed

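The authors deposited a table of counts per gene for the whole series, with 53379 gene IDs, of which 53274 matched a symbol. Per the submitters' processing notes, Trim Galore, FastQC, STAR, HTSeq and mm10 were used, with versions and strand setting not given in the sources used here, so reads of overlapping or antisense genes cannot be told apart. Per the labels, libraries were made from poly(A) RNA with a stranded kit. Gene positions are of GRCm38.

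Library totals of the 15 libraries were 21089552 to 44066541 counts. No 2 libraries of a group held identical counts in the 33 pairs compared. The main test was edgeR 4.0.16 (quasi-likelihood, TMM, filterByExpr by line) in R 4.3.3 on 4 MC38, 4 MCA101OVA and 7 B16OVA libraries with line and run code as terms. A gene was called at a Benjamini-Hochberg adjusted p under 0.05 over all genes tested. DESeq2 1.42.0, other scalings and filters, other sets of libraries, a length slope covariate and leave-one-out fits were alternatives. Folds are MC38 over MCA101OVA. With simulated counts for the 15 libraries (14913 genes), 32% of 4-fold and 86% of 16-fold changes were recovered, with 6 false calls of 163. For the 5 libraries of run B176 (14540 genes) these were 50% and 94%, with 11 false calls of 183. Each simulated gene had the same mean in every line and run, apart from the changes set in MC38. In the 15 simulated libraries B16OVA thus expressed every changed gene, unlike many called genes. The rates therefore do not cover genes that B16OVA hardly expresses, or differences between runs.

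Named genes were called, had no predicted symbol, at least 1 CPM on average in the higher line, no overlap between lines and the same direction in run B176 (15 highest, 15 lowest), or were among the 10 most abundant called genes in each direction, or were members of 40 gene lists, and some genes that meet this rule are not reported here. Dmrta1 and the called genes printed for the smaller fits lie outside this rule and were chosen after their values were seen. The comparison and the lists were chosen with earlier results of these data known. The fits of run B176 with its own alternatives, of 22 libraries and without libraries of low length slope were chosen after seeing the data.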

Additional observations from a re-analysis of the deposited data

Results flagged for a closer look

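The libraries labelled MC38 differed by run in 1936 genes (edgeR, D176 against B176, 22 libraries). Krt18 differed by 7.79 on the log2 scale and Psmb8 by -9.20 (D176 MC38 minus B176 MC38).

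Among 86 groups of a named gene and line, 23 had 1 library far from the others, and 18 of these libraries were MC38 replicate 1, the only MC38 library of run B176 in the fit. Chance flags about 1 in 20 groups where genes are not chosen by their values. These genes were called in a fit that holds MC38 replicate 1, so that rate is no baseline for them. High in MC38 replicate 1 were Gspt2 (15.3 CPM), Prorsd1 (22.01 CPM), Plcb1 (13.4 CPM), Tbc1d9 (33.4 CPM), Epop (52.6 CPM), Sirpa (12.1 CPM) and Cd34 (182.4 CPM). Low in it were Tram1l1 (1.63 CPM), Pet2 (0 CPM), Pde3b (2.22 CPM), Akr1c12 (0.136 CPM), Akr1c13 (0.477 CPM), Enthd1 (0.318 CPM) and Car5b (0.976 CPM). Also low in it were Slc14a1 (0.0681 CPM), Tigit (0.204 CPM), Hs6st2 (0.953 CPM) and Ror2 (0.0908 CPM). Prdm16 was high in MC38 replicate 2 (26.1 CPM). In MCA101OVA, Prorsd1 stood apart in replicate 1 (0.0232 CPM), Trim14 in replicate 2 (0.0341 CPM), and Cnp and Plcb1 in replicate 4 (0.0531 CPM each), all at levels of a few counts.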

How the results depend on the processing

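Calls over the 15 libraries, 27 higher and 48 lower, were 488 and 255 without a filter, 179 and 160 with DESeq2, 46 and 57 with no run term, 209 and 497 for the 2 lines alone with a run term, 476 and 244 with all cultured tumour libraries, 66 and 83 with the length slope, 15 and 31 with a 2-fold minimum, and 17 and 33 without libraries of low slope. They were 6 and 13 without run B176, 4 and 6 in Ctrl libraries and 1292 and 1137 within run B176. Leaving out 1 library gave 3 to 60 higher and 3 to 70 lower, 3 and 3 without MCA101OVA replicate 4.

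Called list members, 4 higher and 9 lower, were 80 and 43 without a filter, 26 and 23 with DESeq2, 25 and 60 for the 2 lines with a run term, 64 and 30 with all cultured libraries, 156 and 111 within run B176, 1 and 3 without run B176 and 0 and 0 in Ctrl libraries. The higher members were 2 for the 2 lines without a run term, 2 with the 2-fold minimum, 2 without low-slope libraries and 8 with the slope. Leaving out 1 library gave 0 to 8 and 2 to 11.

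Within run B176 calls were 2021 and 1753 without a filter, 408 and 560 with a stricter one, 688 and 514 with a 2-fold minimum, 2051 and 1784 with DESeq2, 0 and 0 with the slope, and 498 to 1827 and 423 to 1723 on leaving out 1 library. Interferon-stimulated genes called higher were 22 with the 2-fold minimum, 0 with the slope and 20 to 38 on leaving out 1 library. MHC class I genes called higher were 9 with the stricter filter, 0 with the slope and 9 to 16 on leaving out 1 library. In the 22 libraries with the slope, B176 MC38 against MCA101 gave 3175 higher, D176 MC38 against MCA101 gave 12 higher and 21 lower (0 and 2 without low-slope libraries), and D176 against B176 MC38 gave 1398 higher and 1914 lower. Ctrl libraries with the slope gave 23 and 20. The cause of these shifts was not tested.

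Folds changed sign in the Ctrl libraries for Pde3b (1.94), Enthd1 (0.16), Slc14a1 (4.11), Tigit (3.57), Hs6st2 (5.61) and Ror2 (3.92), within run B176 for Arap3 (-0.98), and for Tigit with no run term (0.85, and 0.85 for the 2 lines alone). Genes on in MC38 or MCA101OVA were 7 and 9 at 1 CPM, 0 and 0 at 20 CPM, and 0 and 1 with 0.05 CPM as the limit for near 0. In run B176 they were 296 and 110, 31 and 25, and 71 and 36, and 104 were on in MCA101 with 0.5 CPM as that limit. Lowest and highest chromosome medians were -0.22 and 0.33 in Ctrl libraries and -0.23 and 0.43 in run B176.

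No paired analysis was possible because no label numbers replicates across the 2 lines. Run code was a term instead, and only run B176 holds unedited libraries of both lines. The single pair of run B176 gives no test.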
